A study of Mus musculus with 12 samples.

Results

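The annexin genes described here are Anxa1, Anxa2, Anxa3, Anxa4, Anxa5, Anxa6, Anxa7 and Anxa11, 8 of the 45792 genes quantified in cultured mouse neural stem cells (NSCs). They were listed because Anxa3 was among the genes with the largest rise in NSCs that lack Ncf1, so they were chosen by the log2 fold change of Anxa3 between vehicle-treated Ncf1-/- and WT NSCs, and for that comparison their values are a description, with no p-value and nothing supported by them. Ncf1 encodes an organizer subunit of the phagocyte-type NADPH oxidase, and Igfbp2 is a secreted protein that binds insulin-like growth factors. NSCs were prepared from the forebrain of WT and Ncf1-/- pups, 1 to 2 days old and from a line back-crossed to C57BL/6J in the case of Ncf1-/-, and were grown without serum in EGF and FGF to the second passage. The 12 libraries comprised 4 of WT cultures without added protein, 4 of Ncf1-/- cultures given vehicle (untreated in the labels) and 4 of Ncf1-/- cultures given Igfbp2, at 100 ng per ml according to the labels, whereas the study's methods state a lower dose. Treatment began 48 h after plating and RNA was taken 48 h later.

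Annexins are cytosolic proteins that bind membranes rich in acidic phospholipids when calcium rises. Their core is built from repeated domains that carry the calcium-binding loops, and their amino-terminal tails differ and bind partners such as the S100 proteins. They are known for roles in membrane repair, vesicle traffic and the organization of membranes with the cortical cytoskeleton, and in the brain several are abundant in glial cells.

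A stretch of coding sequence around a calcium-binding loop motif is shown for 5 members. The stretches were picked by their match to that motif, so they are no measure of how similar the genes are. Each stretch surrounds the first exact match to the motif in that gene, and the capitals mark its 4 codons, for glycine, a variable residue, glycine and threonine, and the letters were read 5′ to 3′ from the GENCODE transcripts of GRCm38.
Anxa2: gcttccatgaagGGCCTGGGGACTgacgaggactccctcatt
Anxa3: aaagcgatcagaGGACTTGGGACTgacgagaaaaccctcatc
Anxa5: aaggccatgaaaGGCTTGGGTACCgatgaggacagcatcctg
Anxa6: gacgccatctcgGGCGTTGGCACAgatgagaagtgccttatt
Anxa7: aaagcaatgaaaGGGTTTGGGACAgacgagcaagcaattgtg
The match began at codon 120 in Anxa2, codon 33 in Anxa3, codon 28 in Anxa5, codon 107 in Anxa6 and codon 197 in Anxa7. It lies further into the protein in Anxa2 and Anxa6 than in Anxa3 and Anxa5, so the stretches need not come from the same repeat of the core. The 4-codon pattern occurred 5 times in Anxa6, whose coding sequence of 673 codons holds a duplicated core, and 3 times in Anxa3 (323 codons), Anxa4, Anxa5, Anxa7 and Anxa11. It occurred 2 times in Anxa1 and in Anxa2.

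The genes lie on 7 chromosomes of GRCm38, so that only Anxa7 and Anxa11 share a chromosome. Anxa3 (ENSMUSG00000029484) spans chr5:96793339-96845966 on the plus strand. Anxa2 (ENSMUSG00000032231) spans chr9:69453620-69491795 on the plus strand, Anxa5 (ENSMUSG00000027712) chr3:36448923-36475894 on the minus strand, and Anxa6 (ENSMUSG00000018340) chr11:54979108-55033445 on the minus strand. Anxa7 (ENSMUSG00000021814) spans chr14:20455260-20480133 on the minus strand and Anxa11 (ENSMUSG00000021866) chr14:25842156-25886804 on the plus strand. Genes that overlap a member in the annotation and are listed in the files had at most 7 counts in any library. The counts of Anxa4 and Anxa11 were not whole in 10 of the 12 libraries each, since RSEM shared reads between genes, and their values are less certain for that reason.

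Libraries held between 18201622 and 34086554 counts, with WT replicate 3 the deepest. Ncf1 had 2 to 7 counts in WT, 2 to 4 in vehicle-treated and 1 in each Igfbp2-treated library, too few to check the genotype labels. All 8 neural stem cell markers were tested and together reached 2672 to 8307 CPM (counts scaled to the effective library size) in WT, 7783 to 8414 in vehicle-treated and 7700 to 8212 in Igfbp2-treated libraries. Vim and Fabp7 carried most of that sum, and of the 8 genes 2 were called in edgeR as higher and 5 as lower (Sox2, Sox9, Pax6, Prom1 and Msi1) between vehicle-treated Ncf1-/- and WT, with a median log2 fold change of −0.69 (−0.51 with library totals, where 3 were called as higher and 4 as lower). Of all genes 28.9% were called as higher and 28.2% as lower between those groups in edgeR. WT libraries differed more among themselves (biological coefficient of variation 0.250) than vehicle-treated (0.118) or Igfbp2-treated ones (0.122). The summed level of 4 Y-linked genes was 105 to 116 CPM in the vehicle-treated and 7.79 to 9.18 CPM in the Igfbp2-treated libraries, and in WT it was 107 to 118 CPM in replicates 1 to 3 and 6.46 CPM in replicate 4. The study's methods describe the Ncf1-/- cultures as pairs from the same animals, with which these values conflict, and between the groups treatment and sex-linked expression cannot be told apart. A sample sheet in the study's code lists WT replicate 4 as treated with apocynin whereas its label says untreated, so values without it are given beside several of the results.

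Anxa3 was barely detected in 2 WT cultures and among the most abundant annexins in every Ncf1-/- culture. Anxa3 is a short-tailed annexin known from neutrophils and microglia. It had 18, 11, 329 and 47 counts in WT replicates 1 to 4, which is 0.819, 0.594, 9.44 and 2.62 CPM after TMM scaling. In the vehicle-treated Ncf1-/- libraries it stood at 92.0, 104, 103 and 120 CPM, from 2111 to 3211 counts. In the Igfbp2-treated libraries it stood at 105, 98.2, 106 and 73.8 CPM. The highest WT library thus lay below the lowest Ncf1-/- library, while the vehicle-treated and Igfbp2-treated ranges overlapped.

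The fitted log2 fold change of Anxa3 between vehicle-treated Ncf1-/- and WT was 4.84 (SE 0.58), from means of 3.37 ± 4.15 CPM (SD, n = 4) in WT and 105 ± 11.5 CPM in vehicle-treated cultures. By size of rise it ranked 4 among the 6186 called genes whose groups did not overlap and whose mean reached 5 CPM, and the genes just before and after it had log2 fold changes of 4.95 and 4.78. WT replicate 3 moved this value most: without it the log2 fold change was 6.31. Without WT replicate 4 it was 4.71.

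The WT libraries also differed in which Anxa3 transcripts the reads were assigned to. The mean Anxa3 transcript length that RSEM listed was 725 and 667 bases in WT replicates 1 and 2, and 1541 and 1516 bases in WT replicates 3 and 4. It was 1467 to 1544 bases in the vehicle-treated and 1447 to 1565 bases in the Igfbp2-treated libraries. The long annotated Anxa3 transcripts measure 1595 and 1523 bases and the other 7 between 376 and 831 bases. The short means therefore belonged to the 2 libraries with 18 and 11 Anxa3 counts, and a TPM value, which is divided by this length, is raised there relative to CPM.

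**Figure D1:**
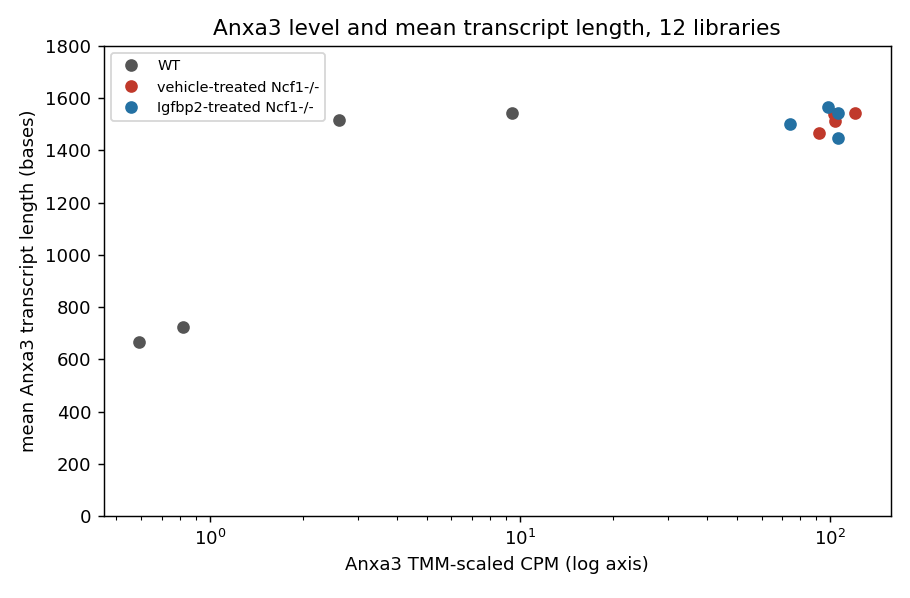
Mean Anxa3 transcript length as listed by RSEM (bases, vertical axis) against the Anxa3 level (TMM-scaled CPM, log axis), 1 point per library and colours for the 3 groups. The 2 WT libraries with under 1 CPM have means of 725 and 667 bases, and the other 10 libraries lie between 1447 and 1565 bases.

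Microglial markers, which could accompany Anxa3, summed to at most 2.13 CPM in any library, and the part of microglia in the Anxa3 level was not tested. Of 8 such genes, 5 (Cx3cr1, Tmem119, Aif1, C1qa and C1qb) had 3 or fewer counts in every library, and C1qa and C1qb had none. Of the 2 that were tested, Itgam was called as higher between vehicle-treated Ncf1-/- and WT (log2 fold change 0.97, edgeR adjusted p = 0.0146) and P2ry12 was not. Of all genes 57.2% were called there. Itgam stood at 0.390 to 0.594 CPM in WT and 0.677 to 1.18 CPM in vehicle-treated libraries. The summed level of the 8 genes was 0.835 to 1.67 CPM in WT, 1.64 to 2.13 CPM in vehicle-treated and 1.34 to 2.01 CPM in Igfbp2-treated libraries.

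Anxa5 and Anxa6 were the annexins with the highest mean TPM in WT cultures and were higher still in Ncf1-/- cultures. Anxa5 binds phosphatidylserine and is the protein used to stain dying cells, and Anxa6 organizes membrane domains. Anxa5 stood at 23.0, 25.0, 64.5 and 37.1 CPM in WT, 73.8, 74.2, 79.7 and 78.3 CPM in vehicle-treated and 85.2, 80.7, 74.2 and 76.2 CPM in Igfbp2-treated libraries. In CPM all WT libraries lay below all Ncf1-/- libraries, and WT replicate 3 came closest. In TPM they overlapped, with WT replicate 3 at 40.8. The vehicle-treated libraries stood at 37.0 to 46.0 TPM and the Igfbp2-treated ones at 24.0 to 35.8 TPM. The log2 fold change between vehicle-treated Ncf1-/- and WT was 1.03 (SE 0.25).

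Anxa6 stood at 59.4, 59.6, 114 and 91.3 CPM in WT, 186, 195, 197 and 203 CPM in vehicle-treated and 263, 250, 230 and 252 CPM in Igfbp2-treated libraries. In CPM every vehicle-treated library lay above every WT library and below every Igfbp2-treated one. In TPM the treatments overlapped, at 54.6 to 75.0 with vehicle and 49.25 to 65.0 with Igfbp2. WT stayed below both in TPM, at 16.3 to 40.2. The log2 fold change between vehicle-treated Ncf1-/- and WT was 1.27 (SE 0.18).

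Anxa2 split the WT cultures. Anxa2 pairs with S100a10 in a complex that links membranes to actin and binds plasminogen at the cell surface. It stood at 5.78 and 6.42 CPM in WT replicates 1 and 2 and at 24.1 and 27.1 CPM in WT replicates 3 and 4, the latter within the vehicle-treated range of 22.2 to 30.1 CPM. The Igfbp2-treated libraries were at 45.6, 38.2, 47.0 and 44.1 CPM, above every other library. In TPM the groups overlapped, at 2.86 to 15.9 in WT, 11.9 to 20.4 with vehicle and 15.7 to 23.7 with Igfbp2. The log2 fold change between vehicle-treated Ncf1-/- and WT was 0.72 (SE 0.39), and 1.06 without WT replicate 4. Anxa2 was not called there with all 12 libraries, nor in 10 of the 12 fits with a library left out.

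Anxa7 went the other way, with less transcript in vehicle-treated Ncf1-/- cultures than in WT. Anxa7, also called synexin, has a long tail and acts in membrane fusion. It stood at 15.5, 20.1, 19.6 and 26.6 CPM in WT and at 14.3, 15.1, 15.2 and 14.3 CPM in vehicle-treated libraries. In CPM the groups were separated by a small gap at WT replicate 1. In TPM they overlapped, at 3.66 to 7.46 in WT and 3.60 to 4.53 in vehicle-treated libraries. The Igfbp2-treated libraries were at 19.9, 18.7, 16.4 and 17.9 CPM, within the WT range. The log2 fold change between vehicle-treated Ncf1-/- and WT was −0.47 (SE 0.13), −0.29 with library totals and −0.34 on log2(TPM + 1).

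Anxa4, Anxa11 and Anxa1 were the least expressed members in Ncf1-/- cultures, whereas in WT the mean of Anxa3 (3.37 CPM) lay below that of Anxa4 (4.39 CPM). Anxa4, which is abundant in epithelia, ranged from 2.27 to 6.63 CPM in WT, 5.71 to 7.50 CPM in vehicle-treated and 5.12 to 8.44 CPM in Igfbp2-treated libraries. Anxa11, a long-tailed annexin of RNA granules and lysosomes, ranged from 2.05 to 3.24 CPM, 2.57 to 3.24 CPM and 2.77 to 3.88 CPM in the same order. Both overlapped between all groups. Anxa1, a glucocorticoid-induced ligand of formyl peptide receptors, had 0, 0, 3 and 0 counts in WT, 2, 6, 9 and 5 in vehicle-treated and 6, 2, 6 and 15 in Igfbp2-treated libraries, and was left out of the fit by the filter on low counts.

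**Figure D2:**
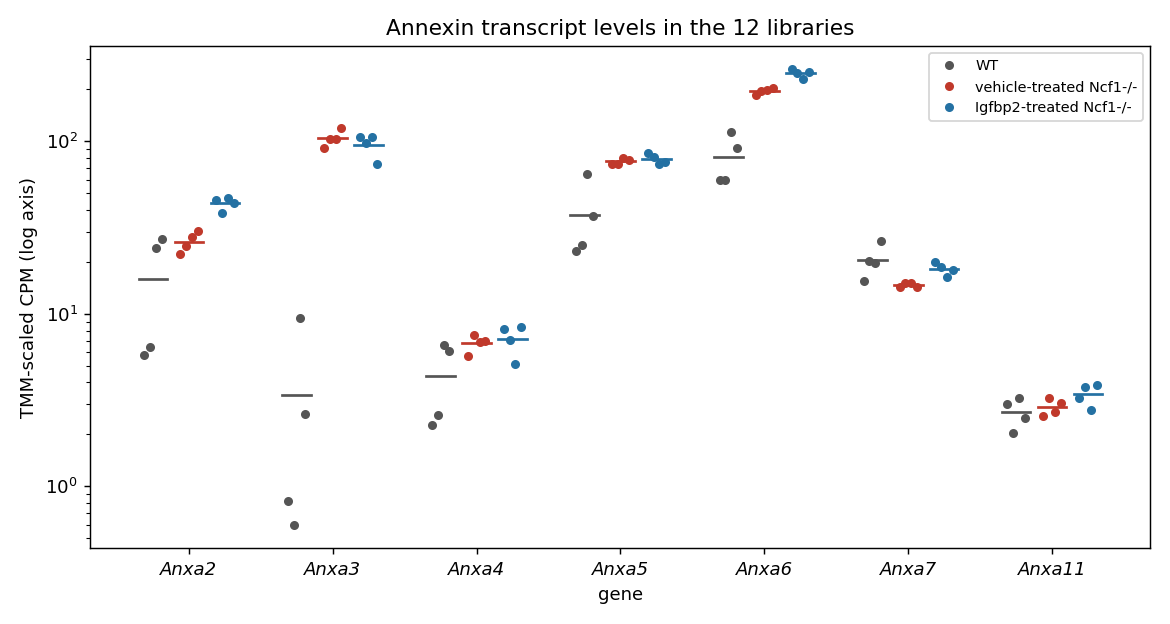
TMM-scaled CPM (log axis) of the 7 annexins that passed the filter, 1 point per library in replicate order from left to right, with lines at the group means (n = 4 per group). Anxa3 lies at 0.594 to 9.44 CPM in WT and at 73.8 to 120 CPM in the Ncf1-/- libraries. The 3 groups of Anxa6 are separate in CPM, whereas in TPM the vehicle-treated and Igfbp2-treated ranges overlap.

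Between vehicle-treated Ncf1-/- and WT cultures, 4 of the 7 members that passed the filter lay past the edgeR threshold used for all genes (adjusted p-value under 0.05), Anxa3, Anxa5 and Anxa6 as higher and Anxa7 as lower. Of all 15706 genes tested, 57.2% were called, 28.9% as higher and 28.2% as lower. The members' count is printed beside that share as a description only and is no test of them, since this comparison chose the list. The same 4 members did not overlap between the groups in CPM, as did 51.2% of all genes, whereas in TPM Anxa5 and Anxa7 overlapped. With a library left out, Anxa2 stayed short of the threshold in 10 of 12 fits and Anxa4 in 11 of 12, so the count depended on the libraries used. The median log2 fold change was 0.72 over the 7 members and 0.02 over all genes. Between Igfbp2-treated Ncf1-/- and WT cultures, which share the WT libraries with that comparison, the log2 fold changes were 4.71 for Anxa3, 1.62 for Anxa6, 1.46 for Anxa2, 1.07 for Anxa5, 0.69 for Anxa4, 0.33 for Anxa11 and −0.17 for Anxa7. There 4 members (Anxa2, Anxa3, Anxa5 and Anxa6) lay past the threshold, all as higher and again as a description, against 62.4% of all genes called and 31.6% called as higher. The same 4 did not overlap in CPM, against 54.3% of all genes, whereas in TPM Anxa2 and Anxa5 overlapped.

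**Figure D3:**
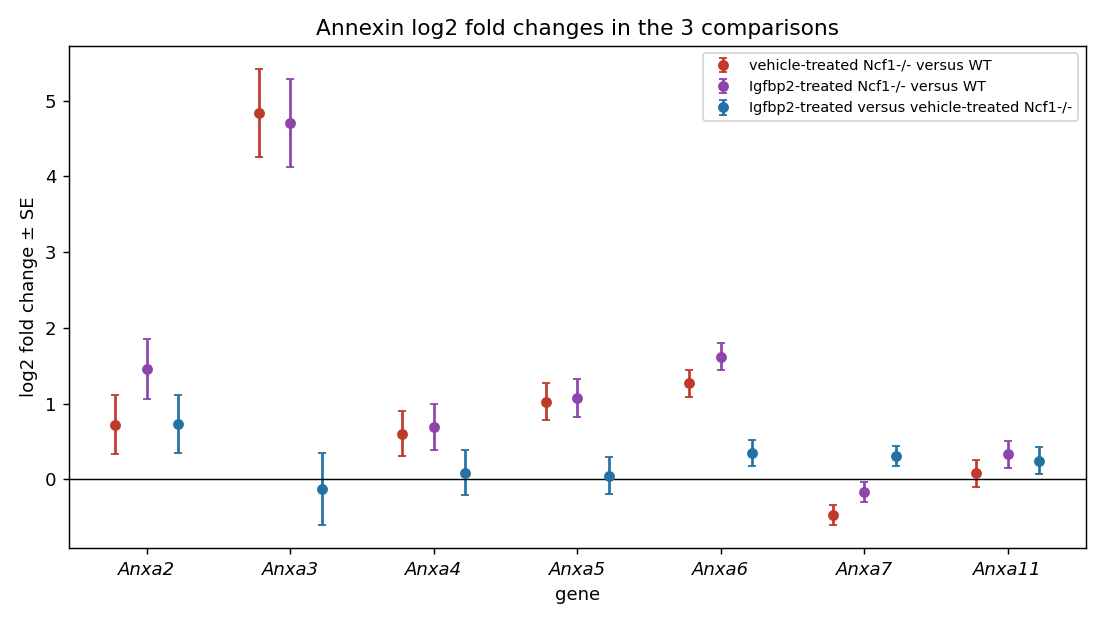
Log2 fold changes of the 7 annexins with their standard errors (vertical axis) in the 3 comparisons, 4 libraries per group. Anxa3 lies at 4.84 and 4.71 against WT and at −0.13 between the treatments, and Anxa7 is below 0 against WT in both comparisons.

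Per transcript length, the order of the annexins differed between WT and Ncf1-/- cultures. TPM, which is scaled by transcript length as well as by library, allows genes to be compared within a library. In WT the means were 26.0 for Anxa6, 21.4 for Anxa5, 9.47 for Anxa2, 5.57 for Anxa7, 2.21 for Anxa3, 1.95 for Anxa4, 0.910 for Anxa11 and 0.015 for Anxa1, and the ranges of all neighbours but the last pair overlapped. In vehicle-treated Ncf1-/- cultures Anxa3 came after Anxa6 at 58.6 ± 11.4 against 63.4 ± 8.46 TPM (SD, n = 4), with overlapping ranges. The order below was Anxa5 (39.9), Anxa2 (15.7), Anxa7 (4.09), Anxa4 (2.87), Anxa11 (0.995) and Anxa1 (0.170), with no overlap between neighbours. Igfbp2-treated cultures had the same order, with overlaps among Anxa6, Anxa3 and Anxa5 only.

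Anxa3 made up 1.82% to 4.98% of the summed TPM of the 8 genes in WT, 30.1% to 33.2% in vehicle-treated and 20.8% to 27.5% in Igfbp2-treated libraries. The share of Anxa7 was 5.29% to 12.5% in WT and 2.01% to 2.31% in vehicle-treated libraries. The summed TPM was 67.6 ± 35.8 in WT, 186 ± 27.9 in vehicle-treated and 153 ± 27.1 in Igfbp2-treated cultures, whereas the summed CPM was 165 ± 63.4, 427 ± 24.4 and 497 ± 24.5. The order of the treatments thus differed between the scales. Short structural RNAs took between 56.0% and 72.3% of the TPM of a library, and their part in this was not tested for the annexins beyond the rescaled values given with the alternatives.

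**Figure D4:**
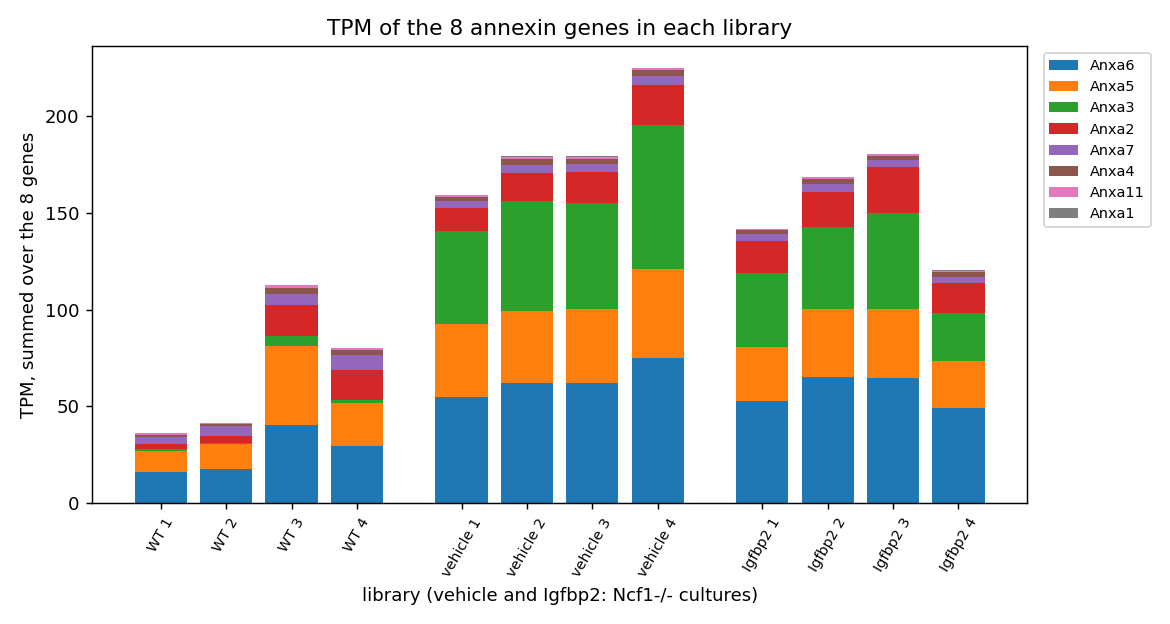
TPM of the 8 annexins stacked for each of the 12 libraries (vertical axis, linear from 0). Anxa3 is a thin band in WT, at most 4.98% of a bar, and 20.8% to 33.2% of each Ncf1-/- bar.

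WT replicate 3 was the highest WT library for 6 of the 8 members and WT replicate 4 for the other two, Anxa2 and Anxa7. The ratio of the highest to the lowest WT library was 15.9 for Anxa3, 4.68 for Anxa2, 2.91 for Anxa4 and 2.80 for Anxa5. In vehicle-treated cultures the corresponding ratios were 1.30, 1.36, 1.31 and 1.08. The summed annexin level in WT replicates 1 to 4 was 110, 116, 241 and 193 CPM. Beside it, the neural stem cell markers summed to 2672, 2839, 8307 and 4031 CPM and the 10 oligodendrocyte lineage markers to 10113, 10493, 2332 and 6105 CPM in the same libraries. The 7 astrocyte markers summed to 6724, 7392, 12592 and 11451 CPM there. The neural stem cell and the astrocyte sums both had the same order of libraries as the annexins. The oligodendrocyte lineage sum was 787 to 865 CPM and the astrocyte sum 3072 to 3626 CPM in vehicle-treated libraries. The astrocyte sum was thus lower there than in WT, whereas that of the annexins was higher. The neural stem cell sum was 7783 to 8414 CPM there and overlapped WT, with 2 of its markers called as higher and 5 as lower. Of the astrocyte markers edgeR called 6 of 7 as lower between vehicle-treated Ncf1-/- and WT, and 5 with library totals. Of the oligodendrocyte lineage markers it called 9 of 10 as lower and 1, Olig2, as higher. The mean of Olig2 was 348 CPM in WT and 427 CPM in vehicle-treated cultures. Of all genes 28.2% were called as lower and 28.9% as higher between these groups. In bulk RNA, fewer cells of a type and less RNA per cell cannot be told apart, and the part of these cell types in the annexin levels was not tested.

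The genes whose pattern was most like that of Anxa3 over the 12 libraries, by Pearson's r on log2(CPM + 1) among the 11172 genes whose mean reached 5 CPM, were Trim16 (r = 0.996), Pdlim3 (0.995), Prr18 (0.994), Golm1 (0.994) and Spsb4 (0.994). Pdlim3 stood at 0.594 to 5.74 CPM in WT, 26.4 to 30.1 CPM in vehicle-treated and 23.9 to 30.5 CPM in Igfbp2-treated libraries. The 12 points fall into WT and Ncf1-/- libraries, so these coefficients mostly describe that division.

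Whether Igfbp2 changed the annexins of Ncf1-/- cultures was tested with the 12 libraries in a single edgeR model, in a comparison that shares with the choice of the members its vehicle-treated libraries. None of the 7 members passed, against 25.0% of all genes called, and 1 (Anxa7) had an unadjusted p-value under 0.05. Anxa3 differed by −0.13 on the log2 scale (SE 0.48; adjusted p = 0.867 in edgeR). Over the other scalings, tests and filters its value ranged from −0.62 to −0.12, and the median of all genes moved with the scale as well. In TPM it stood at 48.0 to 74.7 with vehicle and 25.0 to 49.7 with Igfbp2, so the ranges overlapped. The log2 fold changes of Anxa2, Anxa6 and Anxa7 were 0.74 (SE 0.39), 0.35 (SE 0.17) and 0.31 (SE 0.13), with edgeR adjusted p-values of 0.178, 0.152 and 0.108. These 3 genes did not overlap between the treatments in CPM, as did 34.1% of all genes, whereas in TPM all 3 overlapped. For Anxa4, Anxa5 and Anxa11 the values were 0.09, 0.05 and 0.25, with standard errors of 0.30, 0.24 and 0.18. The median was 0.25 over the 7 members and 0.04 over all genes.

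The outcome depended on whether the WT libraries, with their wider spread, entered the fit. With only the 8 Ncf1-/- libraries, edgeR called 3 of 7 members, all as higher, against 19.5% of genes called as higher: Anxa2 (0.69, adjusted p = 0.000245), Anxa6 (0.30, adjusted p = 0.00338) and Anxa7 (0.26, adjusted p = 0.0207). With the preparation number as a replicate block in the same libraries edgeR called the same 3 (adjusted p = 0.000685, 0.0098 and 0.0387, in that order), against 19.0% of genes called as higher. Without WT replicate 3 in the model of all groups, Anxa6 was called (0.35, edgeR adjusted p = 0.0416). On other scales the median of all genes itself moved, to −0.23 with library totals and −0.30 on log2(TPM + 1). Anxa2 then stood at 0.46 and 0.23, still above 0, whereas Anxa6 stood at 0.08 and −0.13 and Anxa7 at 0.03 and −0.14. Relative to the median of all genes on log2(TPM + 1), these 3 were at 0.53, 0.16 and 0.16.

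Y-linked expression differed between the same 8 libraries as given above. Mesenchymal markers summed to 5.49 to 7.39 CPM in vehicle-treated and 10.5 to 13.2 CPM in Igfbp2-treated libraries, and endothelial markers to 8.19 to 11.4 CPM and 14.6 to 19.4 CPM. Of 7 mesenchymal markers 4 were tested, and edgeR called 3 of them as higher with Igfbp2, Col1a1 (1.05), Col1a2 (1.58) and Pdgfrb (2.02), against 2 with library totals and 0 on log2(TPM + 1). Of 8 endothelial markers 4 were tested and 1, Flt1, was called as higher (1.34), against 0 called as higher on either of those scales. Of all genes 14.2% were called as higher between the treatments in the model of counts. Lum and Cdh5, other markers on these lists, had 3 or fewer counts in every library. The part of these cell types in the Anxa2, Anxa6 and Anxa7 values was not tested.

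Of the 4 annexin genes outside the list, Anxa10 and Anxa13 had no counts in any library and Anxa8 had at most 0.111 CPM. Anxa9 had means of 0.500, 0.867 and 0.916 CPM in WT, vehicle-treated and Igfbp2-treated cultures, with log2 fold changes of 0.71 (edgeR adjusted p = 0.0954) between vehicle-treated Ncf1-/- and WT and 0.10 (edgeR adjusted p = 0.854) between the treatments.

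Genes of proteins that bind annexins moved in both directions between the genotypes. Of 11 partner genes, 9 passed the filter and 6 were called between vehicle-treated Ncf1-/- and WT, 2 higher and 4 lower, a share near the 57.2% of all genes called. Their median log2 fold change was −0.01, against 0.02 over all genes. S100a10, the partner of Anxa2, stood at 5.59, 4.75, 7.66 and 6.63 CPM in WT, 27.6, 28.2, 28.7 and 28.0 CPM in vehicle-treated and 42.7, 36.1, 38.0 and 33.8 CPM in Igfbp2-treated libraries. The 3 groups did not overlap in CPM, whereas in TPM the 2 treatments did. The log2 fold change between the genotypes was 2.18 (SE 0.13; adjusted p = 6.4e-08 in edgeR). S100a11, a partner of Anxa1, rose by 0.92 (edgeR adjusted p = 0.00394).

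The partners that fell were Ahnak, Dysf, S100a6 and S100a4. Ahnak, a giant scaffold protein that binds the Anxa2 and S100a10 complex, stood at 26.3, 28.6, 65.4 and 57.6 CPM in WT and 2.88, 3.19, 2.25 and 2.39 CPM in vehicle-treated libraries. On the log2 scale the difference was −4.06 (SE 0.33; adjusted p = 6.66e-07 in edgeR), in the direction opposite to S100a10. S100a6, a calcium sensor, fell from 24.8 ± 9.05 to 3.58 ± 0.708 CPM, and S100a4, a calcium-binding protein of motile cells, from 4.31 ± 0.921 to 1.14 ± 0.265 CPM (SD, n = 4), with log2 fold changes of −2.79 and −1.91. Dysf, the membrane repair protein dysferlin, had a log2 fold change of −1.39 (edgeR adjusted p = 0.000823).

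Between the treatments 4 of the 9 partner genes were called, all as higher with Igfbp2, against 14.2% of all genes called as higher. Dysf went from 1.52, 2.32, 2.25 and 2.01 CPM with vehicle to 4.10, 5.41, 6.12 and 4.91 CPM with Igfbp2, a difference of 1.34 on the log2 scale (SE 0.28; adjusted p = 0.00562 in edgeR), which placed it within the WT range. Ahnak rose by 1.32 on the log2 scale (edgeR adjusted p = 0.014) to 4.32 to 8.64 CPM, still below every WT library. S100a10 and S100a4 rose by 0.42 and 0.72 (edgeR adjusted p = 0.0217 and 0.0435). S100a10 depended on the scale: its value was 0.15 with library totals and −0.09 on log2(TPM + 1), and on the latter scale the called partners were Pdcd6, Sri and Rasa1, as lower. Ahnak and Dysf were called whichever of the 12 libraries was left out, although on log2(TPM + 1) neither was called (0.30 and 0.27). S100a10 was not called without vehicle-treated replicate 1, 2 or 3 or without Igfbp2-treated replicate 1 or 3, and S100a4 lost its call in 9 of the 12 cases, being called only without WT replicate 2 or 3 or vehicle-treated replicate 1. S100a4 was also not called with the replicate block (0.68, edgeR adjusted p = 0.053).

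The remaining partners did not pass in either comparison. Pdcd6 and Sri, calcium-binding partners of Anxa7 and Anxa11, had log2 fold changes of 0.16 and −0.01 between the genotypes and of −0.01 and −0.04 between the treatments. Rasa1, a Ras GTPase activator that binds Anxa6, had 0.22 and −0.25. Fpr1 and Fpr2, formyl peptide receptors to which Anxa1 binds, had 3 or fewer counts in every library.

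**Figure D5:**
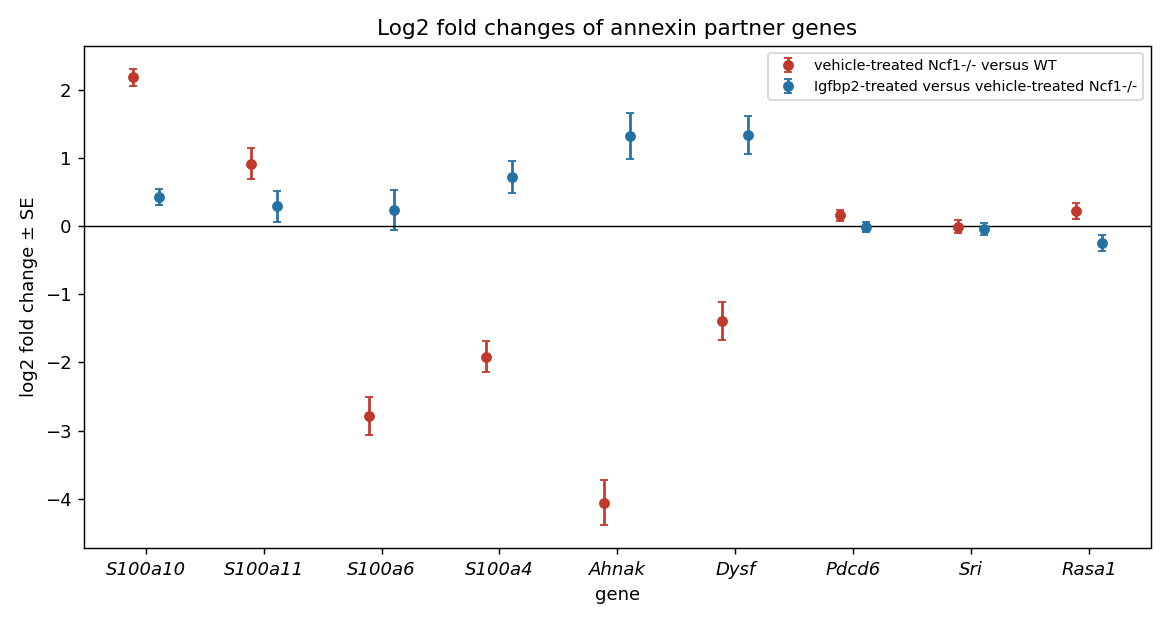
Log2 fold changes of the 9 annexin partner genes that passed the filter, with standard errors, between the genotypes and between the treatments (4 libraries per group). S100a10 lies at 2.18 and Ahnak at −4.06 between the genotypes, and both are above 0 between the treatments, where S100a10 is at −0.09 on log2(TPM + 1).

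In the plasminogen system, on whose activation the Anxa2 complex acts, 4 of 6 genes tested were called between vehicle-treated Ncf1-/- and WT, all higher, with a list median of 1.28, against 28.9% of all genes called as higher. Plat, tissue plasminogen activator, rose most, from 95.1 to 264 CPM in WT to 442 to 478 CPM in vehicle-treated libraries (log2 fold change 1.62, edgeR adjusted p = 0.000146). Between the treatments 3 were called, all higher, with a median of 0.37 and against 14.2% of all genes, whereas with library totals 2 were called as higher and 1 as lower, and on log2(TPM + 1) the same numbers were called with a median of −0.05. Plaur, the urokinase receptor, rose most in the model of counts (1.72, edgeR adjusted p = 0.0103) at a low level of 1.08 to 2.87 CPM. Plg, plasminogen itself, had 3 or fewer counts in every library.

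Of 11 membrane repair genes tested, 4 were called as lower and 0 as higher between vehicle-treated Ncf1-/- and WT, and 5 were called as higher and 0 as lower between the treatments. Of all genes 28.2% were called as lower and 28.9% as higher between the genotypes, and 14.2% as higher and 10.7% as lower between the treatments. Without WT replicate 4 the counts were 4 lower and 1 higher (Syt7) between the genotypes and 4 higher and 0 lower between the treatments. The list medians were −0.11 and 0.25, and both changed sign with library totals (0.07 and −0.02), where 3 genes were called as higher and 3 as lower between the genotypes and 2 as higher and 3 as lower between the treatments. On log2(TPM + 1) the median between the treatments was −0.24, with 0 genes called as higher and 3 as lower. Dysf and Syt7, a calcium sensor of lysosome exocytosis, were called as higher with Igfbp2 under both TMM factors and library totals. Dysf, which is also on the partner list, had the largest change in both comparisons.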

How the data were processed

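RNA of 12 cultures was depleted of rRNA and sequenced. The authors aligned reads with Bowtie2 and estimated abundance with RSEM (GRCm38 in the submitters' processing notes, with no tool version given in the sources used here). The authors deposited expected counts per gene, not normalized, and TPM, scaled by RSEM to a fixed sum per library. The deposited FPKM values were not used. The merged table deposited by the authors holds a score equal to TPM times the number of transcripts of a gene in 100.0% of values above 0, and it supplied gene symbols only. RSEM's mean transcript lengths were used as deposited. Columns that match no sample numbered 0.

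In R 4.3.3, edgeR 4.0.16 took the expected counts after rounding. filterByExpr kept 15706 genes, library sizes were scaled by TMM, and the 12 libraries entered 1 quasi-likelihood fit with a coefficient for each group. P-values are two-sided with Benjamini-Hochberg adjustment across the genes tested, and the threshold for a call was 0.05. Anxa3's neighbours in rank come from called genes whose groups did not overlap and whose mean reached 5 CPM. Coordinates and coding sequences came from GENCODE on GRCm38, matched by gene identifier for 8 of 8 members (Biopython 1.88). The members and lists were chosen with earlier results of these data known.

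Named genes are the 8 members, the other annexins, the partner genes, the called extremes of the other lists, and the 5 genes most like Anxa3. Alternatives were other scalings, DESeq2 1.42.0, limma 3.58.1 on TPM with pseudocounts of 1 and 0.1, the study's own test on TPM, other filters, only the groups compared, each library left out, and the preparation number as a block. Applying them to the plasminogen, membrane repair, phosphatidylserine and cell type lists was chosen after seeing the data. The study's methods match Ncf1-/- cultures by preparation number. With the group means taken off, libraries with the same number correlated at −0.0673 to 0.0328 (4 pairs), and those with different numbers at −0.248 to 0.257 (12 pairs). P-values measure the spread between these cultures. Scripts were tested on simulated data.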

Additional observations from a re-analysis of the deposited data

Results flagged for a closer look

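Among 24 sets of 4 libraries (8 genes in 3 groups), 1 held a library far from the others by Dixon's criterion, where chance gives about 1 in 20. It was Anxa1 in WT, at 0.086 CPM in replicate 3, from 3 counts, and at 0 in the other libraries of the group.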

How the results depend on the processing

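With each library left out in turn, the number of annexins called was 4 to 6 between vehicle-treated Ncf1-/- and WT, 0 to 1 between the treatments and 4 to 5 between Igfbp2-treated Ncf1-/- and WT (a description in the comparisons with WT), and that of partner genes 6 throughout and 2 to 4 between the treatments. Of all genes, 51.5% to 59.1%, 14.4% to 30.6% and 57.2% to 63.0% were called in those fits, for the 3 comparisons in the same order. The 6 annexins came without WT replicate 3 and included Anxa2 and Anxa4. With the study's test on TPM 2 annexins were called in each comparison with WT. Of the partner genes it called 3 between the genotypes and 1 between the treatments. That test called 15.5% of all genes between vehicle-treated Ncf1-/- and WT, 7.71% between the treatments and 20.1% between Igfbp2-treated Ncf1-/- and WT. Between the treatments, 3 annexins were called with only the 2 groups compared and 3 with the replicate block, and the pairing changed no other annexin call there, while of the partner genes S100a4 lost its call under the block (0.0530). Partner genes called between the treatments numbered 1 on rescaled TPM and 2 at a mean of at least 5 CPM, against 20.2% and 24.8% of all genes. DESeq2 gave no adjusted p-value for Anxa3. Of all calls, 57.0% were higher between the treatments, against 11% with library totals and 3.15% on log2(TPM + 1), and between vehicle-treated Ncf1-/- and WT 50.6% against 65.6% with library totals.

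Several signs changed between the treatments, including those of S100a10, Anxa6 and Anxa7, at 0.42, 0.35 and 0.31 in the model of counts. With library totals Anxa4, Anxa5, Anxa11 and S100a6 were at −0.20, −0.23, −0.0297 and −0.0394. On log2(TPM + 1), Anxa4, Anxa5, Anxa6, Anxa7, Anxa11, S100a10, S100a11 and S100a6 were at −0.24, −0.38, −0.13, −0.14, −0.12, −0.0903, −0.24 and −0.13. On log2(TPM + 0.1) the same genes were at −0.32, −0.39, −0.13, −0.17, −0.22, −0.0927, −0.24 and −0.15, and in the study's own test at −0.25, −0.36, −0.13, −0.13, −0.12, −0.0767, −0.23 and −0.15. On rescaled TPM Anxa4 and Anxa5 were at −0.0122 and −0.0631. Anxa5 was at −0.0135 with a mean of at least 5 CPM, −0.0011 with only the 2 groups and −0.0019 with the block. Left-out libraries gave Anxa4 −0.0319 to 0.18, Anxa5 −0.0153 to 0.0766 and Pdcd6 −0.0812 to 0.0175. Between vehicle-treated Ncf1-/- and WT, Sri was at 0.17 with library totals, 0.092 on log2(TPM + 1), 0.094 on log2(TPM + 0.1), 0.0827 in the study's own test, 0.0077 without a filter, 0.0043 at a mean of at least 5 CPM, 0.02 with only the 2 groups and −0.0786 to 0.0479 with libraries left out. The cause of these changes was not tested.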

Other observations

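Genes that place phosphatidylserine, the lipid annexins bind, in the membrane were called for 5 of 8 between vehicle-treated Ncf1-/- and WT cultures, 3 higher and 2 lower, a share near the 57.2% of all genes called there, and for 4, 2 higher and 2 lower, without WT replicate 4. Plscr1, a phospholipid scramblase, had the largest rise (log2 fold change 1.08, edgeR adjusted p = 0.000483), and Atp11a, a flippase, the largest fall (−0.96, edgeR adjusted p = 0.000436). Between the treatments edgeR called 0 of 8, and 1 had an unadjusted p-value under 0.05, whereas DESeq2 called 1. The list median there was 0.12, and it was −0.16 with library totals and −0.35 on log2(TPM + 1), where Plscr1 was called as lower.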
